A study of Rattus norvegicus with 6 samples.

Results

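The laminin chains and nidogens are a set of 9 genes, chosen by their gene symbols: the laminin alpha chain genes Lama2, Lama4 and Lama5, the beta chain genes Lamb1, Lamb2 and Lamb3, the gamma chain gene Lamc1, and the nidogen genes Nid1 and Nid2. All 9 were found among the 18923 genes of the count tables, each under 1 Ensembl identifier, and all 9 passed the filter on low counts, with at least 80 reads in every sample. Expression was measured by poly(A) RNA-Seq in primary chondrocytes from wild-type (WT) newborn female Sprague-Dawley rats, 24 h old at isolation and used at passage 1 or 2. The CON group (3 samples) was kept for 24 h in high-glucose DMEM with 10% FBS and 1% penicillin-streptomycin. The RA group (3 samples) received the same medium with 1 µM all-trans retinoic acid (RA), an active form of vitamin A that binds nuclear receptors. No vehicle is named in the labels for the CON medium. The study's methods describe the 3 samples of a group as independent, and its replicates in general as biological. Whether the samples came from separate animals or separate cultures of the same cells is not stated, so p-values measure the spread between these samples.

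Laminins are large extracellular glycoproteins of the basement membrane and of the pericellular matrix that surrounds chondrocytes. Each is a trimer of 1 alpha, 1 beta and 1 gamma chain, and its name gives the 3 chains in that order, so that laminin-421 is built from the products of Lama4, Lamb2 and Lamc1. The chains assemble inside the cell, and the alpha chain carries the binding sites for integrins and dystroglycan. Nidogens are glycoproteins that bind the gamma chain encoded by Lamc1 and link laminin to collagen IV and perlecan. Lamb1 has long been known as a gene that rises when teratocarcinoma cells differentiate under RA.

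Total counts ran from 29370025 to 38007486 per sample, and the members had between 80 and 69159 reads each in a sample. Levels are given as FPKM, a count scaled by gene length and by sample depth. Changes are log2 fold changes of RA over CON from edgeR's quasi-likelihood test on the counts, and a gene was called a DEG where the p-value, adjusted over all 13438 genes tested by Benjamini-Hochberg, was below 0.05 and the change exceeded 0.58 on the log2 scale, up or down. CON sample 1 stood apart from the other CON samples. Its gene counts differed from theirs with a chi-square per degree of freedom of 39.6 and 63.3, against 8.21 between CON samples 2 and 3 and 6.53 to 8.25 between RA samples. The cells expressed the chondrocyte markers, of which 8 of 9 were DEGs and lower in RA, with a summed FPKM of 6642 to 8775 in CON and 4223 to 4556 in RA. The summed FPKM of 4 endothelial markers was at most 0.178 in any sample, with Emcn at a count of 0 in all 6 samples. Summed marker FPKM in CON and RA was 74.3 to 101.5 and 73.2 to 79.1 for smooth muscle and pericytes, 4.72 to 6.00 and 6.96 to 7.87 for skeletal muscle, 1.04 to 1.65 and 0.679 to 0.710 for Schwann cells, 3.75 to 5.22 and 5.36 to 6.43 for adipocytes, and 1.24 to 1.30 and 1.48 to 1.59 for macrophages. Fibroblast and perichondrium markers summed to 3728 to 4918 in CON and 4811 to 5065 in RA. Of the genes of these lists other than the chondrocyte markers, Myod1 and Fabp4 were DEGs and higher in RA, and Cspg4, Lpl and Postn were DEGs and lower. With 1 sample omitted at a time, the call held 6 times of 6 for Postn, 3 times for Myod1, 2 times for Lpl and 1 time each for Fabp4 and Cspg4. The part of these cell types in the results below was not tested. In bulk RNA, a change in the share of cells of 1 type and a change in RNA per cell cannot be told apart.

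Of the 9 members, 3 were DEGs, against 4.96% of all genes tested. Nid1 and Lamb3 were higher in RA, a direction in which 2.67% of all genes were called, and Nid2 was lower, as were 2.29%. At an adjusted p below 0.05 without the fold threshold, Lamb1 joined them, which made 4 of 9 members against 9.82% of all genes. The FPKM ranges of the 2 groups did not overlap for 6 of the 9 members, against 32.2% of all genes tested. The median log2 fold change of the members was 0.089, and that of all genes tested was -0.0057. The set therefore held a few genes that changed, in both directions, beside 6 genes that were not DEGs.

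The sequence before the transcription start is shown for the members that were higher in RA at an adjusted p below 0.05, Nid1, Lamb1 and Lamb3, since these moved together, and for Lama4, the only member whose window holds a nuclear receptor half-site. The windows hold the 250 bases before the start site in RefSeq's annotation of the rat assembly GRCr8. Such windows were at hand for 7 of the 9 members. The read counts were made on another build, so the coordinates belong to the sequences and not to the counts. Capitals mark the motifs searched on both strands: the GC box GGGCGG, which reads CCGCCC from the other strand, the half-site AGGTCA, the AP-1 motif TGANTCA and the TATA box TATAAA.
Nid1, chr17:93069036-93069285, plus strand: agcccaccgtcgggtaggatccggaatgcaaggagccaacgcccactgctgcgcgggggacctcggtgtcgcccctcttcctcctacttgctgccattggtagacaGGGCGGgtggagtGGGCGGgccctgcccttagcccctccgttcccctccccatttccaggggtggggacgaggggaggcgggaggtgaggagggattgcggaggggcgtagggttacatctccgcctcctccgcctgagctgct
Lamb1, chr6:53562846-53563095, plus strand: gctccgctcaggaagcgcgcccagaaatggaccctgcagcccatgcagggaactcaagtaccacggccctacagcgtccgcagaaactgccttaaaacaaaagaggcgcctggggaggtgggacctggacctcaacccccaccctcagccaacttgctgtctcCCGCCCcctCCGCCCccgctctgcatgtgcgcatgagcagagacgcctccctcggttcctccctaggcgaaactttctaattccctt
Lamb3, chr13:107362303-107362552, plus strand: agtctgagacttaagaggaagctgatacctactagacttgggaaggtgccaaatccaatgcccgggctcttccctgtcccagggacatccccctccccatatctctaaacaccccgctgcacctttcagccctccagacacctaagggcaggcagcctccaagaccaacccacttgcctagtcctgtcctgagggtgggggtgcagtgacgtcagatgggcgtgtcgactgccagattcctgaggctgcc
Lama4, chr20:43946648-43946897, plus strand: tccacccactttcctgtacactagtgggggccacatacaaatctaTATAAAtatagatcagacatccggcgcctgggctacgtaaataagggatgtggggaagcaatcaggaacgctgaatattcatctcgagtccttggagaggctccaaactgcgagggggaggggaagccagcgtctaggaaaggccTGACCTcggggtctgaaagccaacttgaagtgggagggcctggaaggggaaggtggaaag
The half-site and the AP-1 motif were in none of the windows of Nid1, Lamb1 and Lamb3, while 14.1% and 6.34% of the 33469 windows in the table held them. The GC box stood 2 times in the window of Nid1 and 2 times in that of Lamb1, and was not in that of Lamb3. It was also in the windows of members that were not DEGs, 5 times for Lamc1, 4 times for Lama5 and once for Lama2, so that 5 of the 7 member windows held it, against 30.5% of all windows. Lama4 held 1 half-site, with its first base at -60 from the start, and 1 TATA box, a motif in 12.9% of all windows. These are matches of letters in a short window and say nothing on the binding of a receptor. Sites further upstream than 250 bases, and sites with other letters, were not searched, so no match here does not mean that a gene lacks such a site.

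**Figure D1:**
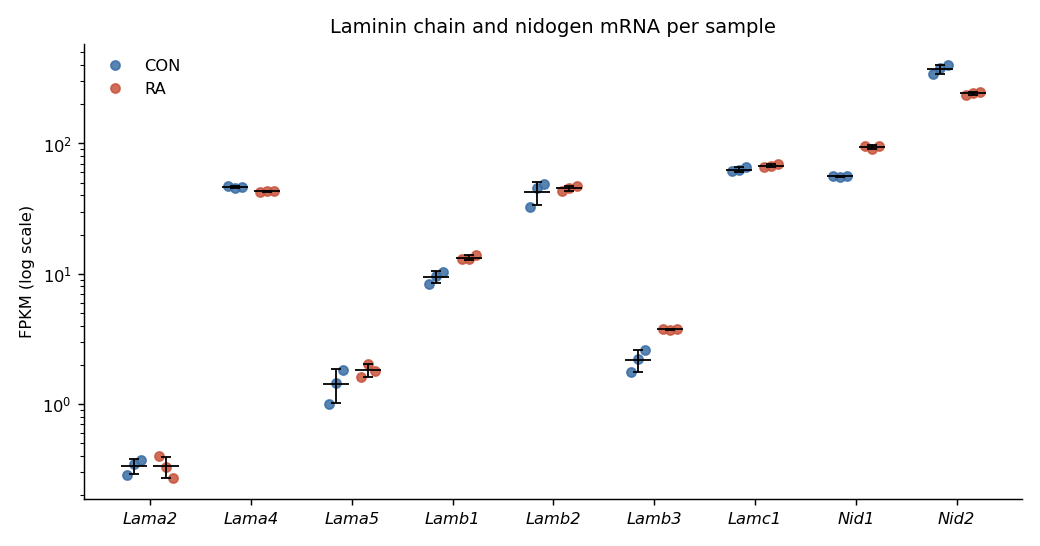
FPKM (log axis) of each member in each sample, with 3 CON samples in blue and 3 RA samples in red. Horizontal bars mark the mean and vertical bars the SD. Nid2 is the highest in both groups, Nid1 and Nid2 lie closer together in RA than in CON, and Lama2 is the lowest.

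The nidogens changed in opposite directions. Nid1 (ENSRNOG00000002461) had 56.0, 55.3 and 56.4 FPKM in the CON samples and 95.4, 90.9 and 96.4 in the RA samples. All RA samples lay far above all CON samples, and the samples of each group lay close together. The log2 fold change was 0.74 (standard error 0.0529, adjusted p = 1.06e-04, edgeR's quasi-likelihood test), a 1.67-fold rise. It stayed a DEG whichever of the 6 samples was omitted, at 0.72 to 0.76. Its level placed it at rank 1348 of 18923 genes in CON and at rank 783 in RA.

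Nid2 (ENSRNOG00000000341) was the most abundant member by far, at rank 182 of all genes in CON. It had 339, 379 and 399 FPKM in CON and 237, 244 and 249 in RA, so the lowest CON sample was well above the highest RA sample. On the log2 scale it fell by 0.63 (standard error 0.0704, adjusted p = 9.95e-04, edgeR), to 0.647 times the CON level. Without CON sample 3 the log2 fold change was -0.56, inside the fold threshold, and Nid2 was then not a DEG, although its adjusted p was 0.00178 in that edgeR fit (range over all alternatives 8.86e-12 to 0.0105). Omitting any of the other 5 samples kept the call.

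Set against each other within a sample, the nidogens do not depend on scaling between samples. Nid1 made up 14.2%, 12.7% and 12.4% of the nidogen FPKM in the CON samples and 28.7%, 27.1% and 27.9% in the RA samples. The mean share was 13.1% ± 0.942 in CON and 27.9% ± 0.791 in RA (SD over 3 samples), a difference of 14.8 percentage points. The exact two-sided permutation test gave p = 0.10, the smallest that 3 against 3 samples allow, and 0.165 after Benjamini-Hochberg adjustment over the 28 such tests of shares, pools, ratios and trimers. Those 28 tests cannot pass 0.05, and the values stand as descriptions. Nid2 remained the main nidogen mRNA, with 6.66 ± 0.533 times the FPKM of Nid1 in CON and 2.58 ± 0.101 times in RA (SD over 3 samples). The summed nidogen FPKM was 428 ± 30.5 in CON and 337 ± 7.06 in RA (SD over 3 samples, exact p = 0.10), and the groups did not overlap.

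**Figure D2:**
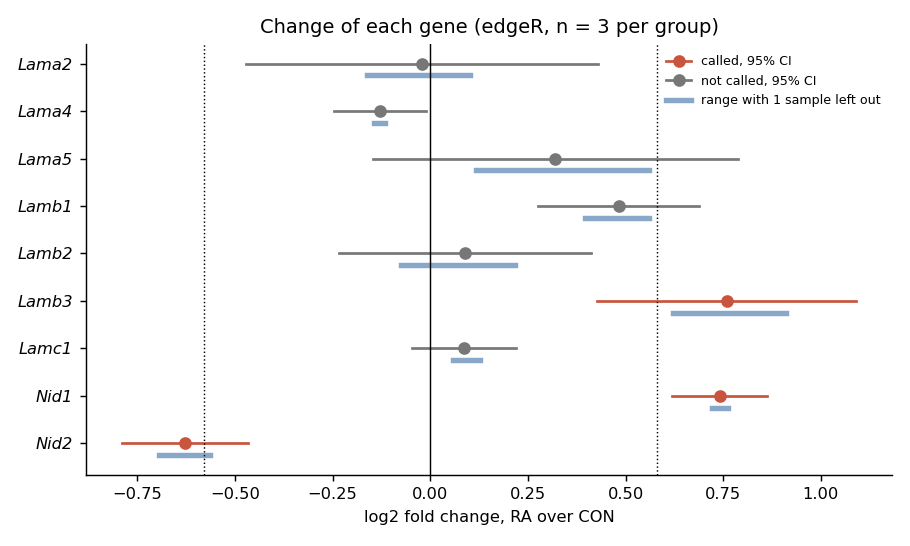
Log2 fold change of RA over CON for each member, with its 95% confidence interval (n = 3 per group). DEGs are red and other genes grey, blue bars give the range with 1 of the 6 samples omitted at a time, and dotted lines mark 0.58 in either direction. Nid1 and Lamb3 lie to the right of the threshold, Nid2 to the left, and Lama4 and Lamc1 have the shortest intervals of the members that were not DEGs.

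The gamma chain is the common part of most laminins, and Lamc1 (ENSRNOG00000002680) was the most abundant chain gene in both groups. It had 61.0, 62.4 and 65.7 FPKM in CON and 66.4, 67.2 and 69.1 in RA. The groups did not overlap, but the highest CON sample and the lowest RA sample were less than 1 FPKM apart. Its log2 fold change was 0.087 (standard error 0.0581, adjusted p = 0.408, edgeR), with a 95% confidence interval from -0.047 to 0.22. A change of Lamc1 as large as that of Nid1 or Nid2 lies outside this interval.

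Since nidogens bind the Lamc1 product, their mRNA was also set against it in each sample. The nidogens together had 6.48, 6.95 and 6.93 times the FPKM of Lamc1 in CON and 5.01, 4.99 and 5.00 times in RA. For Nid1 alone the ratio was 0.887 ± 0.0302 in CON and 1.40 ± 0.0423 in RA, and for Nid2 alone it was 5.90 ± 0.291 and 3.60 ± 0.0323 (SD over 3 samples, exact p = 0.10 for each). Nid1 was below Lamc1 in every CON sample and above it in every RA sample.

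Among the beta chains, Lamb3 (ENSRNOG00000006025) was the only DEG, at a low level. Lamb3 encodes a beta chain found in the laminin of epithelial hemidesmosomes. It had 1.76, 2.22 and 2.59 FPKM in CON and 3.80, 3.71 and 3.75 in RA, from 224 to 480 reads a sample. The RA samples were nearly equal and the CON samples were spread, with CON sample 1 the lowest. The log2 fold change was 0.76 (standard error 0.144, adjusted p = 0.0128, edgeR), with a 95% confidence interval from 0.43 to 1.09. The call was lost without CON sample 2 and without RA sample 1, 2 or 3, where the log2 fold change stayed at 0.76 and the adjusted p lay between 0.0546 and 0.0583 (edgeR, range over all alternatives 3.09e-05 to 0.0583). It held without CON sample 1, at 0.62, and without CON sample 3, at 0.91. The 6 epithelial markers measured summed to 5.05 to 5.50 FPKM in CON and 4.18 to 4.88 in RA, mostly Krt8, and Krt5, Krt14 and Cdh1 were each under 0.1 FPKM. The log2 fold changes of the 3 epithelial markers tested were -0.41 for Krt8, 0.22 for Epcam and 0.58 for Krt18, with edgeR adjusted p-values of 0.111, 0.648 and 0.484.

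Lamb1 (ENSRNOG00000005678), a beta chain used in many tissues, had 8.33, 9.67 and 10.3 FPKM in CON and 13.0, 12.9 and 13.9 in RA. Every RA sample was above every CON sample. Its change was 0.48 on the log2 scale (standard error 0.0896, adjusted p = 0.0115, edgeR), below the fold threshold, so that Lamb1 was not a DEG. Its 95% confidence interval, from 0.28 to 0.69, includes the threshold. With 1 sample omitted at a time it ran from 0.40 to 0.56, and its adjusted p rose above 0.05 without CON sample 2 (0.0517) and without RA sample 3 (0.0665), in edgeR, with a range over all alternatives of 6.48e-05 to 0.0665.

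Lamb2 (ENSRNOG00000047768), the beta chain of laminins at the synapse, the kidney filter and blood vessels, was the main beta chain mRNA. It had 32.3, 45.5 and 48.8 FPKM in CON and 43.2, 45.8 and 47.0 in RA. The groups overlapped, and CON sample 1 was well below the other 5 samples. For Lamb2 the log2 fold change was 0.089 (standard error 0.141, adjusted p = 0.744, edgeR), with a wide interval from -0.23 to 0.41, and the log2 fold change was -0.074 without CON sample 1.

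Within the pool of the 3 beta chains, the shares of Lamb1 and Lamb3 were larger in every RA sample than in any CON sample, and that of Lamb2 was smaller. Lamb2 made up 76.2%, 79.3% and 79.2% of the pool in CON and 72.0%, 73.4% and 72.7% in RA. Lamb1 made up 19.6%, 16.9% and 16.6% in CON and 21.7%, 20.7% and 21.5% in RA. Lamb3 made up 4.07% ± 0.184 in CON and 6.02% ± 0.275 in RA (SD over 3 samples). For each of the 3 shares the exact permutation p was 0.10. In CON sample 1 the share of Lamb1 was nearest to the RA samples, and without that sample the difference for Lamb1 was 4.56 percentage points in place of 3.60.

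**Figure D3:**
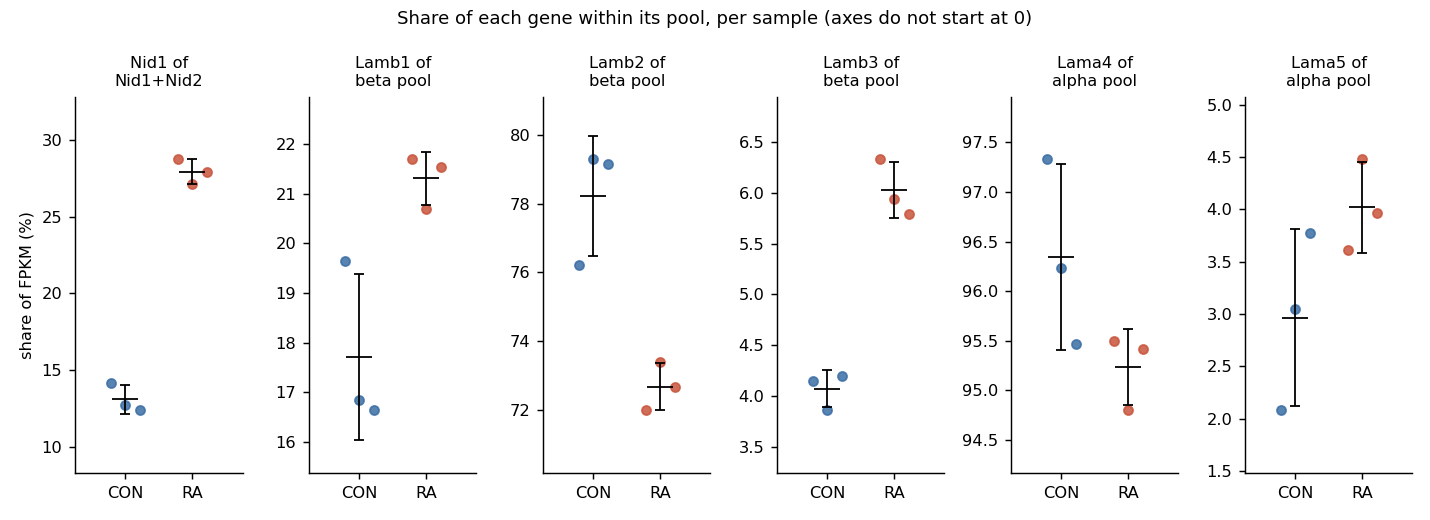
Share in percent of each gene in the summed FPKM of its pool, per sample: nidogens (Nid1, Nid2), beta chains (Lamb1, Lamb2, Lamb3) and alpha chains (Lama2, Lama4, Lama5). Bars mark the mean and SD of 3 samples, and the axes do not start at 0. The groups are apart for Nid1 and the 3 beta chains and overlap for Lama4 and Lama5.

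The alpha pool was almost entirely Lama4 (ENSRNOG00000000599), which encodes a short alpha chain found in blood vessels, fat and other mesenchymal tissues. Lama4 had 46.9, 45.8 and 46.6 FPKM in CON and 42.7, 43.0 and 42.9 in RA. The groups did not overlap and the spread within each was very small, at a coefficient of variation of 1.25% in CON and 0.453% in RA. The log2 fold change was -0.13 (standard error 0.0517, adjusted p = 0.175, edgeR), with a 95% confidence interval from -0.25 to -0.010, and Lama4 was not a DEG. It made up 96.3% ± 0.933 of the alpha pool in CON and 95.2% ± 0.382 in RA (SD over 3 samples, exact p = 0.20).

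Lama5 (ENSRNOG00000053691), a long alpha chain widespread in epithelial and vascular basement membranes, was low. It had 1.00, 1.45 and 1.84 FPKM in CON and 1.61, 2.03 and 1.78 in RA, and the groups overlapped. Its log2 fold change was 0.32 (standard error 0.204, adjusted p = 0.384, edgeR) with an interval from -0.15 to 0.79, too wide to set apart a change of the size of Nid1 from none. It was 0.12 without CON sample 1 and 0.56 without CON sample 3.

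Lama2 (ENSRNOG00000011134), the alpha chain of the muscle and peripheral nerve laminins, was the lowest member, with 80 to 133 reads a sample. It had 0.285, 0.346 and 0.369 FPKM in CON and 0.398, 0.327 and 0.273 in RA. The groups overlapped fully, and the log2 fold change was -0.021 (standard error 0.197, adjusted p = 0.959, edgeR), with an interval from -0.47 to 0.43.

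In CON, the order by mean FPKM was Nid2, Lamc1, Nid1, Lama4, Lamb2, Lamb1, Lamb3, Lama5 and Lama2. The ranges of the neighbours Lama4 and Lamb2 overlapped, as did those of Lamb3 and Lama5, and all other neighbours were apart. The place of Lama4 before Lamb2 rested on CON sample 1, without which the CON means were 46.2 FPKM for Lama4 and 47.2 for Lamb2. In RA, Nid1 stood before Lamc1 and Lamb2 before Lama4, and no neighbours overlapped.

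The other laminin chain genes decide which trimers these members can enter. Lama1 had 0 to 3 reads and Lamc3 0 to 6 reads in a sample, and neither passed the filter on low counts. A count of 0 allows up to 3 reads by counting error alone. Lama3 and Lamb4 were not analysed here.

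For each trimer whose 3 chains were all measured, the chain with the lowest FPKM was taken as the ceiling that the mRNA levels set. This assumes equal translation of the chains and says nothing on the protein. Each ceiling was taken by itself, as if no other trimer used its chains. Laminin-421 and laminin-411 both need Lama4 and Lamc1, so their ceilings compete and cannot be added. Laminin-421 had the highest ceiling, 41.5 ± 7.95 FPKM in CON and 42.9 ± 0.194 in RA (SD over 3 samples, exact p = 1.0). Its scarcest chain was Lamb2 in CON samples 1 and 2 and Lama4 in the other 4 samples. RA minus CON was 1.38 FPKM with all samples and -3.19 FPKM without CON sample 1, so the direction rests on that sample.

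Laminin-411 was limited by Lamb1 in every sample, so its ceiling only restates the FPKM of Lamb1. The ceiling of laminin-411 was 8.33, 9.67 and 10.3 FPKM in CON and 13.0, 12.9 and 13.9 in RA, a difference of 3.87 FPKM (exact p = 0.10). Laminin-511 and laminin-521 were both limited by Lama5, at 1.43 ± 0.419 FPKM in CON and 1.81 ± 0.212 in RA (SD over 3 samples, exact p = 0.30). Laminin-211 and laminin-221 were limited by Lama2, at 0.333 ± 0.0434 and 0.332 ± 0.0628 FPKM (SD over 3 samples, exact p = 1.0). Laminin-111 and laminin-121 were limited by Lama1, at no more than 0.00956 FPKM in any sample, and laminin-213 by Lamc3, at no more than 0.0408 FPKM. Among these trimers the ceilings of laminin-421 and laminin-411 were therefore the highest in both groups. Per sample, the alpha pool had 0.765 ± 0.0245 times the FPKM of Lamc1 in CON and 0.666 ± 0.0144 times in RA, and the beta pool had 0.851 ± 0.135 and 0.923 ± 0.0159 times (SD over 3 samples). Lamc1 was thus above both pools in every sample. The beta pool includes Lamb3, at 4.07% of the pool in CON and 6.02% in RA, which is in none of the trimers given here. The beta pool was 0.879, 1.21 and 1.26 times the alpha pool in CON and 1.35, 1.38 and 1.44 times in RA, with CON sample 1 the only sample in which it was the smaller.

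**Figure D4:**
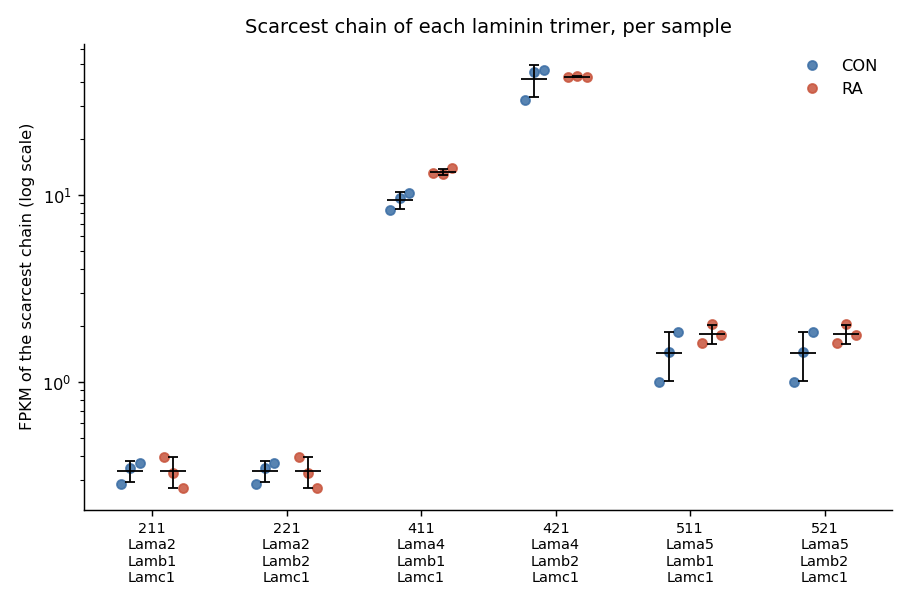
FPKM (log axis) of the scarcest chain of each of 6 laminin trimers built from member chains, per sample, with the mean and SD of 3 samples. Laminin-421 and laminin-411 lie highest, and the groups are apart only for laminin-411, from 8.33 to 10.3 in CON and from 12.9 to 13.9 in RA.

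Laminin receptors were described from a list of 14 genes, all tested. Of these, 3 were DEGs, each of them higher in RA, against 2.67% higher and 2.29% lower among all genes tested, and the list's median log2 fold change was 0.26, that of all genes being -0.0057. Itga3 and Itga6 encode integrin alpha chains that bind laminin, and Itga2 encodes one that binds collagen and laminin. Itga3 had 14.1 ± 1.60 FPKM in CON against 54.2 ± 2.28 in RA (SD over 3 samples), and rose by 1.93 on the log2 scale (standard error 0.0923). Itga6 rose from 48.5 ± 2.60 to 73.5 ± 2.57 FPKM (SD over 3 samples), by 0.59 on the log2 scale (standard error 0.0585, adjusted p = 5.14e-04 in edgeR), just past the fold threshold. Itga2, from 0.287 ± 0.0500 to 0.989 ± 0.230 FPKM (SD over 3 samples), rose by 1.78 on the log2 scale (standard error 0.248). Omitting samples in turn kept the call of Itga3 and Itga2 6 times of 6 and that of Itga6 3 times. Itgb1, the beta chain partner of these integrins, had 362 ± 30.9 FPKM in CON against 440 ± 19.7 in RA (SD over 3 samples), and with a log2 change of 0.27 and an edgeR adjusted p of 0.0399 it was no DEG. Dag1, the gene of dystroglycan, had 73.9 ± 2.50 and 85.7 ± 2.44 FPKM (SD over 3 samples), and its edgeR adjusted p was 0.0682. Itga7 and Itgb4, the integrin chains of muscle and of hemidesmosomes, had a mean FPKM of at most 0.22 in either group, with log2 fold changes of 0.067 and -0.015.

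Of 23 other basement membrane genes, 22 were in the tables and 20 were tested, with a median log2 fold change of -0.043. Of these 20, 3 were DEGs, against 4.96% of all genes tested. Col18a1 and Tinagl1 were DEGs and higher in RA, and Fras1 was lower. Tinagl1 encodes a matrix protein that binds laminin, and its log2 fold change was 0.72 (standard error 0.0875). Col18a1, a basement membrane collagen, had 0.66 (standard error 0.129) and kept its call in 1 of 6 fits with a sample omitted. Fras1, which joins epithelial basement membrane to the tissue below it, had -0.93 (standard error 0.152). Col4a1 and Col4a2, which encode chains of the collagen IV that nidogen links to laminin, had log2 fold changes of 0.088 and 0.12 (adjusted p = 0.558 and 0.454, edgeR). The other collagen IV genes tested, Col4a4, Col4a5 and Col4a6, had 0.88, -0.30 and -0.61 (adjusted p = 0.0841, 0.0170 and 0.0578, edgeR). None of these collagen IV genes was a DEG. Of 14 genes of dystroglycan glycosylation and linkage, 13 were tested and 2 were DEGs, against the same 4.96%, with a median log2 fold change of -0.17. Dmd, the gene of dystrophin, was a DEG at -1.05 (standard error 0.175), and the sarcoglycan gene Sgca was one at 0.86 (standard error 0.222), which held in 2 of 6 fits with a sample omitted. Of 6 hemidesmosome genes, all tested, Itga6 was the only DEG, against the same 4.96%, and the median log2 fold change was 0.22.

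By Pearson correlation of log2 CPM over the 6 samples, the genes most like Nid1 were Nav3, Hsd11b1 and Hadhb, each at 0.999 or above. Those most like Nid2 were Ehd3 (0.999), Grb10 and C1qtnf2, those most like Lamb3 were Sh3bp4 (0.999), Nab2 and Inf2, and those most like Lamc1 were Tmem185b (0.998), Nfrkb and Poldip3. The samples fall into 2 groups and share their libraries across genes, so such likeness is a description. Inf2, Nav3 and Hsd11b1 were themselves DEGs, by 0.70, 0.75 and 2.57 on the log2 scale.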

How the data were processed

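Poly(A) RNA of 6 samples was sequenced on an Illumina HiSeq instrument from NEBNext Ultra libraries. The authors deposited, per sample, a raw count of reads per gene and an FPKM value. The submitters' processing notes name HISAT2, HTSeq 0.13.5 and the build Rnor_6.0. The strand setting is not given in the sources used here, so overlapping genes cannot be told apart. The deposited FPKM was tested on the files and equals the count over gene length and sample total, with no further scaling. TMM factors were 0.983 to 1.01, so scaling between samples changed little.

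Counts were tested with edgeR 4.0.16 in R 4.3.3 (filterByExpr with a minimum count of 10, TMM, glmQLFit and glmQLFTest, 13438 genes, common biological coefficient of variation 0.122), on all 6 samples without covariates. Standard errors were derived from the F statistic, and 95% confidence intervals from the t distribution with the degrees of freedom of the fit. Shares, ratios and trimer ceilings were compared by exact permutation tests over samples with SciPy 1.17.1. The fit was tested on simulated data. Alternatives were DESeq2 1.42.0, limma 3.58.1 on log2(FPKM + 0.1) and log2(FPKM + 1), other normalizations and filters, other thresholds, a replicate block and each sample left out. Where identifiers shared a symbol (158 did), that of highest mean count stood for it. The members and gene lists were chosen with earlier results of these data known. Genes named are the members, the other laminin chains (an item of which is not reported here), the DEGs of the lists with Itga3, Itga6, Itga7, Itgb1, Itgb4 and Dag1, and the 3 genes most like each called member and Lamc1. The collagen IV genes and the marker genes were named after their values were seen.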

Additional observations from a re-analysis of the deposited data

How the results depend on the processing

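Over 16 alternatives, the number of DEGs was 667 with all samples, 434 for limma on log2(FPKM + 1), 1319 for an adjusted p alone, 1017 for an unadjusted p with the fold threshold, and 480 to 755 with 1 sample left out. The number of members called was 2 to 3 with 1 sample left out. Nid1 kept its direction and its call in all 16. Nid2 lost its call only without CON sample 3, and Lamb3 in the 4 fits given above. Lamb1 was called with the adjusted p alone. Directions turned for Lamb2 without CON sample 1 (-0.074) and for Lama2 without CON sample 3 (0.071) and without RA sample 3 (0.10), over a range of -0.16 to 0.10 for Lama2, and none of these was a DEG. The causes were not tested.

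Reads not divided by length moved the difference of RA from CON to -1.95 percentage points for the share of Lama4, 1.88 for Lama5, 1.43 for Lamb3 and 16.8 for Nid1, without a change of sign. Lama3 could not be added to the alpha pool. Leaving Lamb3 out of the beta pool gave -4.21 for Lamb2. With 1 sample left out, the differences ran from -1.54 to -0.609 for Lama4, 0.611 to 1.46 for Lama5, -6.55 to -5.01 for Lamb2, 3.06 to 4.56 for Lamb1, 1.80 to 2.06 for Lamb3 and 14.4 to 15.4 for Nid1. The ceiling of laminin-421 ran from -3.19 to 3.94 FPKM. With pools of the alpha, beta and gamma chains analysed here in place of single chains, RA minus CON of the ceiling was -1.27 FPKM (46.3 ± 3.40 and 45.0 ± 0.371, SD over 3 samples, exact permutation p = 0.60). In a check chosen after seeing the data, it was -3.19 FPKM without CON sample 1, -0.60 without CON sample 2 and 0.0017 without CON sample 3.

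Samples share replicate numbers without a stated pairing. The deviations of samples of the same number correlated across genes at 0.395, 0.0604 and 0.218, and those of different numbers at -0.462 to 0.279. RA samples 1 and 3 correlated best with the CON sample of their own number, and RA sample 2 with CON sample 3. This leaves the pairing unsettled, and the numbers were not taken as pairs. With the replicate number as a block, 684 genes and 3 members were called. The difference of the Nid1 share, 14.8 percentage points, is the same with and without the block by arithmetic, so it cannot show the effect of pairing. The low counts of Lama2, at most 133 reads, limit its precision.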
